A study of Rattus norvegicus with 8 samples.

Results

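The mRNAs of 10 cyclic nucleotide phosphodiesterases, Pde1a, Pde1b, Pde1c, Pde2a, Pde4a, Pde4b, Pde4d, Pde7b, Pde8b and Pde10a, were followed in the rat striatum. They were chosen by name, with their METH and saline levels in these same rats already known, so their group difference is given as a description and not as a test. They are 10 of the 17337 genes counted, and 10 of 10 were among the 12014 genes that passed the filter on low counts. Striatal poly(A) RNA was sequenced from 4 rats that self-administered methamphetamine (METH, 0.05 mg/kg per infusion) and 4 that self-administered saline, in 2 h sessions over 16 days. All 8 were male Sprague-Dawley rats labelled WT. Both groups shared food training, a jugular catheter implanted under pentobarbital, and ketamine with xylazine before the brain was taken, and rats were kept for sampling if their lever pressing was stable at the end. Per the methods, more METH than saline rats had started and 4 of each were kept, so a smaller share of METH rats was kept. Neither the rats' age, the time from the last session to sampling, nor whether dorsal or ventral striatum was taken is given in the sources used here.

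Phosphodiesterases (PDEs) break down cAMP and cGMP and so end the signals that adenylyl and guanylyl cyclases start. In striatal projection neurons, where dopamine D1 receptors raise and D2 receptors lower cAMP, PDE10A and PDE1B are known as abundant enzymes. The PDE1 enzymes are switched on by calcium and calmodulin, PDE2A is stimulated by cGMP, the PDE4, PDE7 and PDE8 enzymes act on cAMP, and PDE10A acts on both nucleotides.

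Promoters of 4 of these genes are shown, picked for the values of the genes described below. Of the 2 windows listed for Pde10a and the 5 for Pde4d, the 1 with a match to the element below is shown. No link between a promoter and a level was tested. Pde1a and Pde1c varied most between rats, and the ratio of Pde4d to Pde10a separated the groups. The sequences are from RefSeq on assembly GRCr8, run 5′ to 3′ on the gene's strand, and cover 250 bases before to 50 bases after a listed transcription start. Capitals mark the 6 letters of a cAMP response element core, TGACGT or its complement ACGTCA. The windows are chr3:85431729-85432028 (minus strand) for Pde1a, chr4:87108085-87108384 (minus strand) for Pde1c, chr1:54765619-54765918 (minus strand) for Pde10a and chr2:42592499-42592798 (plus strand) for Pde4d.
Pde1a: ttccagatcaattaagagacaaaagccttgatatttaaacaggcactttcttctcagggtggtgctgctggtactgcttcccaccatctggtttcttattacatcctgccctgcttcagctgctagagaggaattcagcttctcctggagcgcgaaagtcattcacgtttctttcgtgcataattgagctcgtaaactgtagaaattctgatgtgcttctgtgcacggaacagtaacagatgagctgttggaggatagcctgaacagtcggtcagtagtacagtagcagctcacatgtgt
Pde1c: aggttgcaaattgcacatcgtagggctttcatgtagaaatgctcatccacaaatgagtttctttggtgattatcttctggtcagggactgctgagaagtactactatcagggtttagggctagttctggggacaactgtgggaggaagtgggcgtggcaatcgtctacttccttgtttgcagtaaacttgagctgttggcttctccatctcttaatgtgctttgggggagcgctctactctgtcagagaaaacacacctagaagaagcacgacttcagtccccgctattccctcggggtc
Pde10a: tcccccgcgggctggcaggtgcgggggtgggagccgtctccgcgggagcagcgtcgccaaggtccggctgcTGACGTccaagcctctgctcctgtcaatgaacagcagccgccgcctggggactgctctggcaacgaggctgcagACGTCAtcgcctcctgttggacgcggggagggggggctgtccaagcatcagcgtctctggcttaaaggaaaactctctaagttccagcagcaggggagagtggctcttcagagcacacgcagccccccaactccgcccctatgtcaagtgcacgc
Pde4d: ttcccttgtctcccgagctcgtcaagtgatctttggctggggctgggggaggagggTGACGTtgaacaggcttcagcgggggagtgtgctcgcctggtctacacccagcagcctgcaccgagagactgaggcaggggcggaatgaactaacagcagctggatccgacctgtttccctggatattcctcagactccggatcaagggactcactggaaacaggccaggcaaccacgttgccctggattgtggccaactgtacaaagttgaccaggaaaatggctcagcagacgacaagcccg
The Pde10a window held 2 matches, starting 179 and 105 bases before the start, and the Pde4d window held 1, starting 194 bases before it. The Pde1a and Pde1c windows held none, and neither did the other window listed for Pde10a nor the 4 others listed for Pde4d. Of 18 windows listed for 8 of the members, 4 held a match, and the others with one belonged to Pde4a. Over all 33469 rat promoters of the same 300 bases, 7.94% held TGACGT on either strand. The full palindrome TGACGTCA, which overlaps both cores, was in 1.83% of all promoters and in 0 of the 18. Pde1b and Pde7b had no entry in the promoter table.

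Total counts lay between 18135939 and 21211920 per rat, and 3 counts corresponded to between 0.142 and 0.169 CPM (CPM, read counts scaled to a common library size by TMM). Some libraries stood apart. METH rat 3 had the fewest genes with a count, 13142 against 13333 to 13410 in the others. Saline rat 1 had 65.8 CPM of the cortical gene Slc17a7 against 3.12 to 12.2 in the others. The hypothalamic list summed to 33.4 CPM in saline rat 2 and 71.5 CPM in METH rat 4, nearly all from Avp and Oxt. Avp and Oxt were at 28.2 and 3.75 CPM in saline rat 2 and at 18.3 and 49.8 CPM in METH rat 4. Of the rest of that list, Sim1 and Pmch were at 0 in every rat, and Hcrt lay between 0.904 and 3.37 CPM. None of 9 striatal projection neuron markers was at 0 in any rat, and Ppp1r1b (DARPP-32) lay between 6785 and 10290 CPM.

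Of the PDE1 genes, Pde1b was the steady one and Pde1a and Pde1c were the variable ones. Pde1a was at 13.4, 10.9, 26.1 and 9.78 CPM in saline rats 1 to 4 and at 5.58, 9.76, 4.12 and 11.0 CPM in METH rats 1 to 4. Saline rat 3 stood far above every other animal, METH rats 1 and 3 were the lowest, and METH rat 4 lay inside the saline range, so the groups overlapped. The means were 15.1 ± 7.50 CPM in saline rats and 7.62 ± 3.29 CPM in METH rats (SD, n = 4 each), a log2 fold change of -0.98 (standard error 0.33). The log2 fold change of Pde1a was -0.58 without saline rat 3, whose level therefore carried much of the distance between the means, and -1.21 without METH rat 4. These levels rested on 207 to 540 reads per saline rat and 73 to 209 per METH rat, and the lowest, 73 reads in METH rat 3, had an exact Poisson 95% interval of 57.2 to 91.8 (counting error only). The coefficient of variation of Pde1a between rats was 49.8% in saline and 43.2% in METH rats, against 5.75% and 8.16% from counting alone.

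Pde1c, the third calcium-activated member, had 6.26, 6.35, 12.3 and 9.31 CPM in saline rats 1 to 4 and 6.02, 8.95, 3.50 and 7.59 CPM in METH rats 1 to 4. Saline rat 3 was again the highest animal and METH rat 3 again the lowest, with the other rats interleaved between groups. Its means were 8.56 ± 2.88 and 6.51 ± 2.34 CPM (SD, n = 4 each), and its log2 fold change of -0.39 (standard error 0.28) became -0.16 without saline rat 3, -0.19 without METH rat 3 and -0.58 without METH rat 2. Pde1b, the striatal PDE1, lay between 1230 and 1466 CPM in saline rats and between 1289 and 1474 CPM in METH rats. The Pde1b means were 1366 ± 107 and 1367 ± 82.9 CPM (SD, n = 4 each), with a log2 fold change of 0.0005 (standard error 0.07) whose sign turned with the scaling.

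Pde10a, the dual-specificity enzyme of projection neurons, was at 347, 364, 580 and 515 CPM in saline rats 1 to 4 and at 393, 484, 363 and 385 CPM in METH rats 1 to 4. The saline rats fell into a low pair (1 and 2) and a high pair (3 and 4), and every METH rat lay between the lowest and highest saline rat. The Pde10a means were 452 ± 114 and 406 ± 53.2 CPM (SD, n = 4 each), a log2 fold change of -0.15 (standard error 0.15) that was -0.01 without saline rat 3 and -0.26 without saline rat 1. Pde7b, a cAMP-specific enzyme, followed Pde10a closely, at 64.1, 57.9, 99.9 and 82.2 CPM in saline and 66.7, 81.2, 59.2 and 64.1 CPM in METH rats 1 to 4. Across the 8 rats the log2 levels of Pde7b and Pde10a, each centred on its own mean, differed by a root mean square of 0.06, the smallest distance among the 45 pairs of members. The log2 fold change of Pde7b was -0.17 (standard error 0.15), and it was -0.01 without saline rat 3 and -0.28 without saline rat 2.

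Pde2a was the steadiest of the 10. It was at 858, 887, 971 and 865 CPM in saline rats 1 to 4 and at 973, 1000, 1031 and 964 CPM in METH rats 1 to 4. Of the METH rats, 3 were above the highest saline rat, and METH rat 4 was below saline rat 3. The means were 896 ± 52.1 and 992 ± 30.2 CPM (SD, n = 4 each), a log2 fold change of 0.15 (standard error 0.07) that stayed between 0.13 and 0.19 when each rat was left out. Its within-group SD on the log2 scale stood at percentile 10.5 of the 1000 genes nearest to it in level, whereas that of Pde10a stood at 97.8, of Pde1a at 98.8, and of both Pde1c and Pde7b at 97.1.

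The PDE4 genes code for cAMP-specific enzymes, and the signs of their fitted differences were not alike. Pde4a was at 33.9, 37.2, 45.5 and 37.9 CPM in saline rats 1 to 4 and at 36.2, 52.2, 52.4 and 44.8 CPM in METH rats 1 to 4. METH rats 2 and 3 were above all saline rats and METH rat 1 was among the lowest. The log2 fold change of Pde4a was 0.26 (standard error 0.13), from 38.6 ± 4.92 to 46.4 ± 7.65 CPM (SD, n = 4 each). Pde4b was at 76.8, 73.9, 95.9 and 78.4 CPM in saline and at 76.3, 78.5, 57.2 and 68.0 CPM in METH rats 1 to 4. For Pde4b, METH rats 3 and 4 were below all saline rats and saline rat 3 was above all others. Its log2 fold change was -0.21 (standard error 0.11), and -0.13 without either saline rat 3 or METH rat 3. Pde4d was at 10.6, 10.7, 15.99 and 13.5 CPM in saline and at 13.4, 16.6, 12.5 and 13.6 CPM in METH rats 1 to 4, fully interleaved, with a log2 fold change of 0.14 (standard error 0.16) that was 0.27 without saline rat 3 and 0.05 without METH rat 2. Pde8b, which codes for a high-affinity cAMP enzyme, lay between 83.3 and 99.2 CPM in saline and between 75.2 and 104 CPM in METH rats, with means of 90.0 ± 7.99 and 91.3 ± 14.1 CPM (SD, n = 4 each). The Pde8b log2 fold change was 0.02 (standard error 0.11), and its sign turned under total-count scaling.

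**Figure D1:**
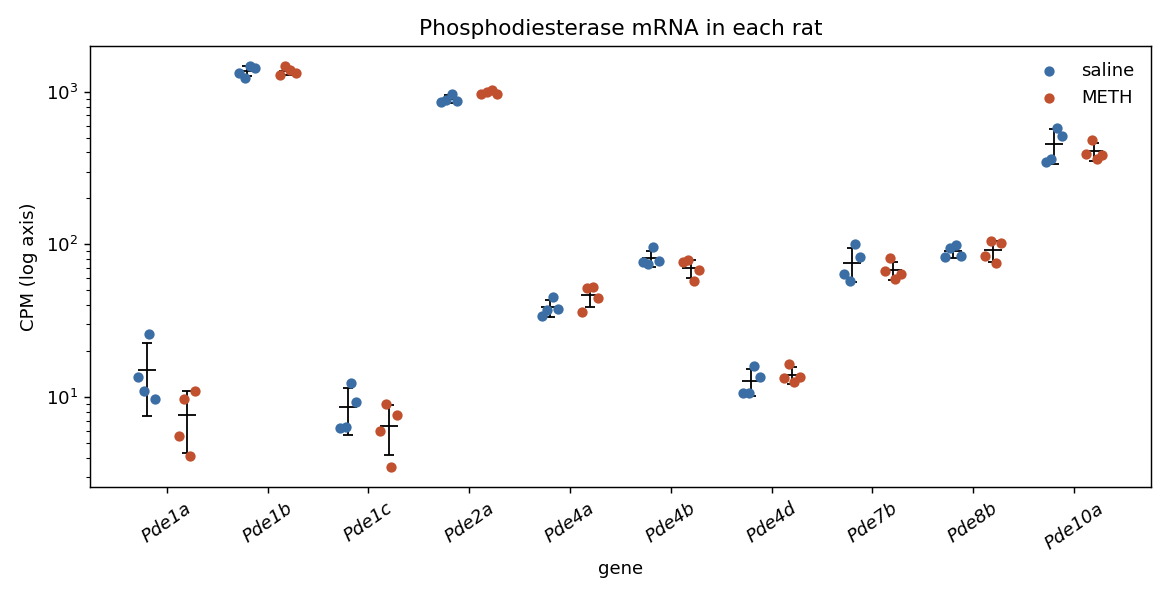
CPM of each of the 10 phosphodiesterase mRNAs (log axis) in the 4 saline (blue) and 4 METH (red) rats, with bars for the mean and SD of each group. The 2 groups overlap for every gene, and the widest spreads are those of Pde1a (4.12 to 26.1 CPM) and Pde1c (3.50 to 12.3 CPM).

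In all, 5 members had a higher and 5 a lower fitted level in METH rats. By the edgeR quasi-likelihood test with Benjamini-Hochberg adjustment over all genes, 0 of the 10 members were called at an FDR below 0.05 and a mean log2 CPM above 1, where 0.516% of the genes tested were. DESeq2 and limma-voom also called 0. At an unadjusted p below 0.05 there were 2 members, Pde1a (lower) and Pde2a (higher), where 11.1% of genes tested passed, and 0 members had groups that did not overlap, where 6.39% of genes had. Because this contrast was known when the members were named, nothing is read from these counts. The absolute log2 fold change was below 2 standard errors for 7 of the 10. Only 1 member passed the unadjusted p without saline rat 1, 2 or 4, without METH rat 3 or 4, or under total-count scaling, and 3 did with no filter on low counts. The median log2 fold change of the members was -0.08, beside -0.01 over all genes tested, and it ran from -0.15 without METH rat 2 to 0.01 without saline rat 3. In bulk tissue, fewer cells of a type and less RNA per cell cannot be told apart for any of these values.

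**Figure D2:**
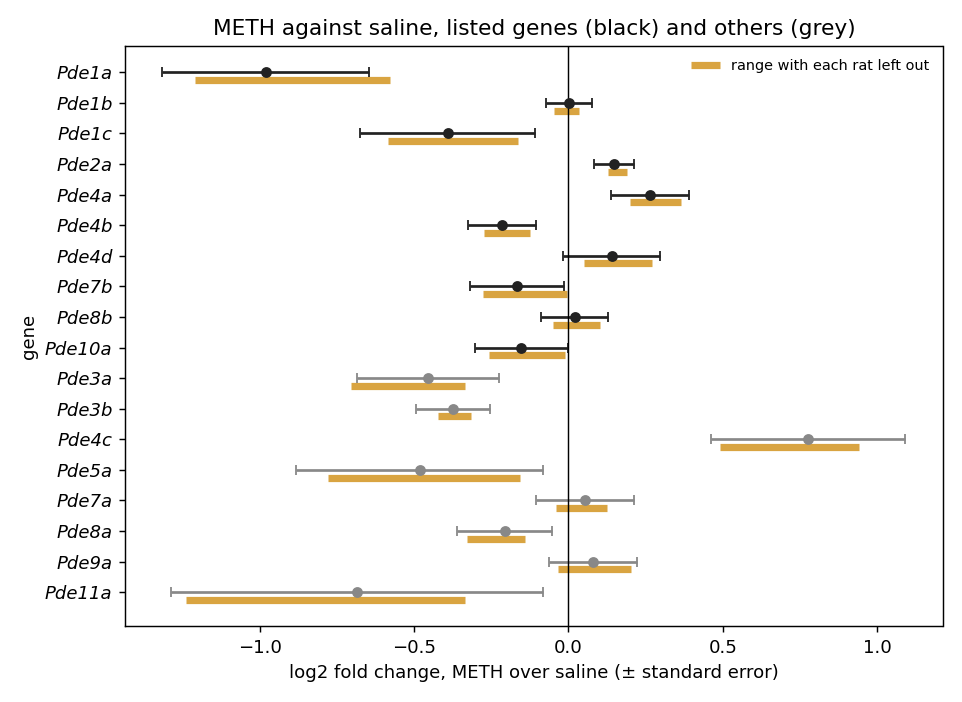
Log2 fold change of METH over saline with its standard error for the 10 members (black) and 8 other catalytic phosphodiesterases (grey), with an orange bar for the range when each rat was left out. The range for Pde1a runs from -1.21 to -0.58, and those of Pde7b and Pde10a end at -0.01.

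Within each group the members tended to be high or low in the same rats. Saline rat 3 was the highest saline rat for 10 of the 10 members, where it was the highest for 29.2% of all genes tested. Its log2 CPM was above the saline mean by 0.90 for Pde1a, 0.58 for Pde1c, 0.43 for Pde7b and 0.40 for Pde10a, and by only 0.10 for Pde1b. Among METH rats, rat 2 was the highest for 7 members (23.7% of all genes), and rat 3 was the lowest for 7 (31.2% of all genes) while being the highest for Pde2a and Pde4a. In METH rat 3 Pde1c was 0.80 and Pde1a 0.76 below the METH mean on the log2 scale. The median within-group SD of log2 CPM was 0.23 for the members and 0.17 for tested genes with a log2 CPM above 1.

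The place of saline rat 3 was less uniform in related lists, and that of METH rats 2 and 3 was closer in some lists only. Saline rat 3 was the highest saline rat for 1 of 8 other catalytic phosphodiesterases, 3 of 9 adenylyl cyclases, 5 of 8 guanylyl cyclases and nitric oxide synthases, 6 of 12 cyclic nucleotide effectors and 3 of 9 projection neuron markers. METH rat 2 was the highest METH rat for 6 of 9 adenylyl cyclases and 6 of 12 effectors. It was the highest for 3 of 8 other catalytic phosphodiesterases, 3 of 8 guanylyl cyclases and nitric oxide synthases and 2 of 9 projection neuron markers. METH rat 3 was the lowest for 5 of 9 adenylyl cyclases, 5 of 8 guanylyl cyclases and nitric oxide synthases and 7 of 12 effectors. Among the 8 other catalytic phosphodiesterases METH rat 3 was the lowest for 2 and the highest for 3. The summed projection neuron markers of saline rat 3, 15150 CPM, lay inside the saline range of 14470 to 15330 CPM. In METH rat 3 they summed to 19250 CPM, above the 15260 to 16510 CPM of the other METH rats, with Ppp1r1b, at 10290 CPM, the largest part. METH rat 3 was the highest METH rat for 5 of these 9 markers and the lowest for 3 (Drd1, Tac1 and Bcl11b). The 5 oligodendrocyte markers summed to 13120, 17860, 12260 and 15600 CPM in saline rats 1 to 4 and to 16240, 12230, 17340 and 11520 CPM in METH rats 1 to 4, and none was at 0 in any rat. Saline rat 3 was thus the lowest saline rat for myelin genes and METH rat 3 the highest METH rat, the reverse of their place for most members. The part of cell makeup in the members' values was not tested.

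**Figure D3:**
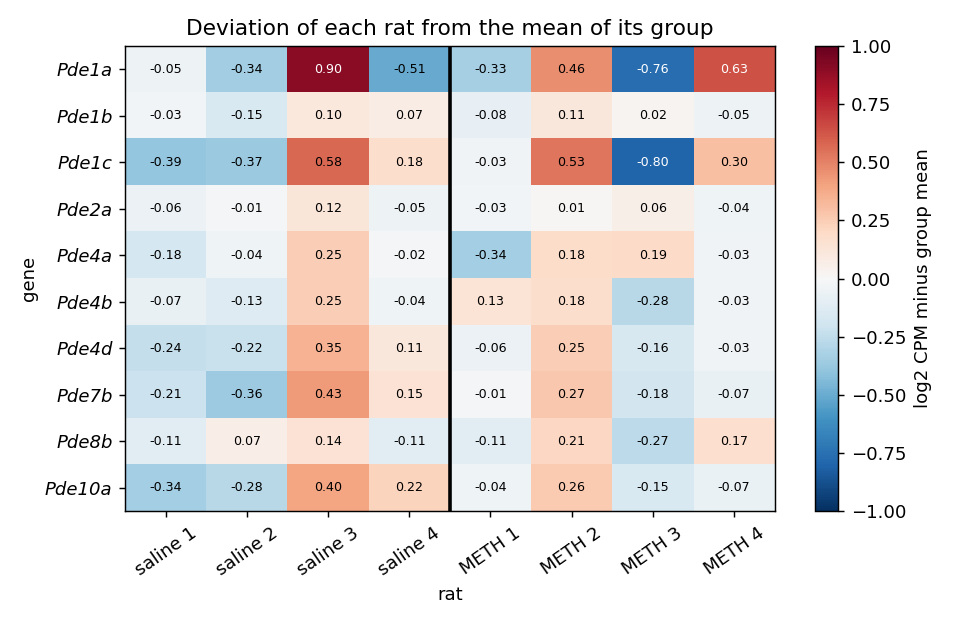
Log2 CPM of each member in each rat minus the mean of that rat's group, from blue (below) to red (above), with saline rats left of the line and METH rats right of it. The column of saline rat 3 is above its group mean for all 10 genes, by 0.10 to 0.90, and METH rat 3 is lowest for Pde1c at -0.80.

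The ratio of one to another within a rat was also followed, which no library scaling can alter. Of the 45 pairs of members, 7 had ratios that did not overlap between groups, and Pde4d was in 4 of them. Over all pairs of the 11977 genes with reads in every rat, 6.55% did not overlap. The 7 pairs were picked from the same contrast after their values were seen, and are a description. The ratio of Pde4d to Pde10a reads was 0.0305, 0.0294, 0.0276 and 0.0262 in saline rats 1 to 4 and 0.0340, 0.0342, 0.0343 and 0.0353 in METH rats 1 to 4. The 4 METH rats were nearly alike and all above the saline rats, and saline rat 3, so high for both genes alone, was inside the range of its group. Pde4d rested on 193 to 331 reads per saline rat and 221 to 348 per METH rat. Counting alone gives it a coefficient of variation of 6.25% in saline and 6.03% in METH rats. The METH ratios were thus closer to each other than counting can resolve. On the log2 scale the ratio was -5.14 ± 0.10 in saline and -4.86 ± 0.02 in METH rats (SD, n = 4 each), a shift of 0.28. Of the other 12013 genes tested, 1.51% had a ratio to Pde10a whose groups did not overlap.

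The ratio of Pde4d to Pde7b behaved alike, at 0.160 to 0.185 in saline and 0.200 to 0.212 in METH rats, where 1.74% of genes had a ratio to Pde7b that did not overlap. As Pde7b and Pde10a followed each other, these are not independent. Within the PDE4 genes, the ratio of Pde4b to Pde4d was 5.80 to 7.25 in saline and 4.58 to 5.71 in METH rats. Against Pde4d, 5.93% of genes tested had a ratio that did not overlap. The log2 ratio of Pde2a to Pde4b was 3.47 ± 0.10 in saline and 3.84 ± 0.24 in METH rats (SD, n = 4 each). The ratio of Pde1c to Pde4d was 0.591 to 0.770 in saline and 0.281 to 0.558 in METH rats. The remaining pairs were Pde1a over Pde4a (0.258 to 0.573 in saline, 0.0787 to 0.246 in METH) and Pde1a over Pde8b (0.116 to 0.263 in saline, 0.0548 to 0.109 in METH). For Pde4b over Pde4d, Pde1c over Pde4d and Pde1a over Pde4a, the gap between groups was within the counting error of the gene with fewer reads. That error was 6.25% and 6.03% for Pde4d, 7.60% and 8.80% for Pde1c and 5.75% and 8.16% for Pde1a, in saline and METH rats. Reads per gene also carry transcript length, which was not used here, so neither these ratios nor the CPM rank one enzyme's mRNA above another's. By reads, Pde1b, Pde2a and Pde10a made up 88.4% to 91.3% of the 10 members' sum in each rat.

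**Figure D4:**
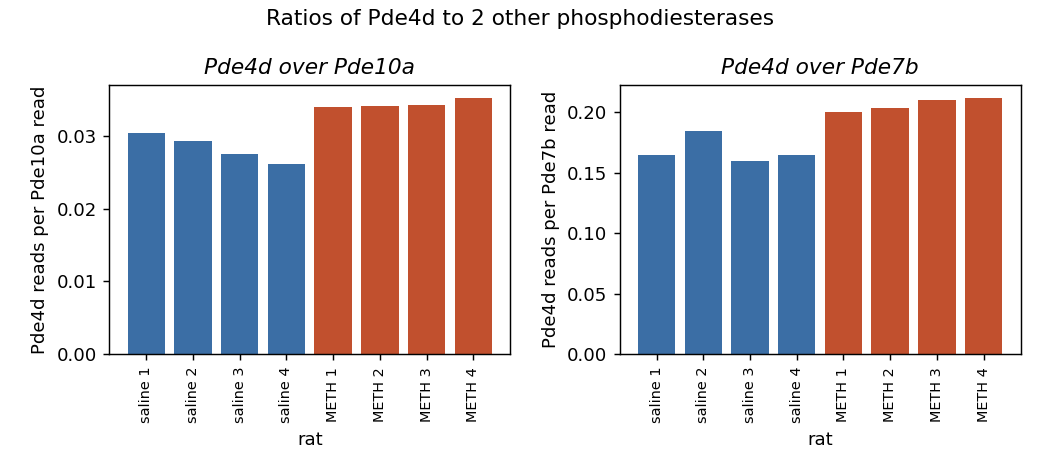
Reads of Pde4d per read of Pde10a (left) and of Pde7b (right) in each saline (blue) and METH (red) rat. The METH rats sit at 0.0340 to 0.0353 over Pde10a and 0.200 to 0.212 over Pde7b, above all saline rats in both panels.

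Pde1a, the member with the lowest fitted log2 fold change, was compared with every tested gene of log2 CPM above 1 for likeness of pattern over the 8 rats. The smallest root mean square differences of centred log2 CPM were those of Kcnj6 (0.23), a potassium channel subunit, Atp2b4 (0.29), a plasma membrane calcium pump, and Eya2 (0.32). Pde1a itself had a root mean square of 0.74 about its mean. Atp2b4 was at 22.7, 21.9, 40.3 and 19.2 CPM in saline and 13.6, 22.1, 9.71 and 14.4 CPM in METH rats 1 to 4, with saline rat 3 highest and METH rat 3 lowest as for Pde1a. For Pde4a, the member with the highest fitted log2 fold change, the nearest were Zfp295 (0.07), Mcf2l (0.08) and Ier5l (0.08), against 0.23 for Pde4a itself.

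Of 4 ventral striatal markers, Calcr and Cartpt were low in the same METH rats as Pde1a and Nts was not, while Drd3 had too few reads to tell. Calcr, the calcitonin receptor, was at 3.18, 6.15, 8.94 and 2.31 CPM in saline and 0.147, 2.09, 0.0565 and 1.79 CPM in METH rats 1 to 4. In METH rats 1 and 3 Calcr was at or under the level of 3 counts. The neuropeptide gene Cartpt was at 33.4, 18.6, 27.5 and 12.2 CPM in saline and 4.11, 9.19, 3.05 and 10.9 CPM in METH rats 1 to 4. As for Pde1a, METH rats 1 and 3 were the lowest for both, while the highest was saline rat 3 for Calcr and saline rat 1 for Cartpt. Nts, a neuropeptide gene, lay between 8.93 and 16.3 CPM in saline and between 11.7 and 22.9 CPM in METH rats, with METH rat 4 the highest, and Drd3 lay between 0.10 and 0.86 CPM over the 8 rats. Drd3 was at 0.538, 0.857, 0.226 and 0.158 CPM in METH rats 1 to 4. It was at or under the level of 3 counts in saline rat 2 and METH rat 4. The 4 markers of this list, Cartpt, Calcr, Drd3 and Nts, summed to 24.1 to 51.2 CPM in saline and 19.0 to 35.7 CPM in METH rats, and 0 of the 4 were at 0 in any rat. Of the 4, an unadjusted p below 0.05 was found for 2, both with less RNA in METH rats, and 0 were called (lowest FDR 0.0632 by quasi-likelihood). The part of the dissected region in the levels of Pde1a was not tested. The cortical marker Slc17a7, high only in saline rat 1, did not follow Pde1a.

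**Figure D5:**
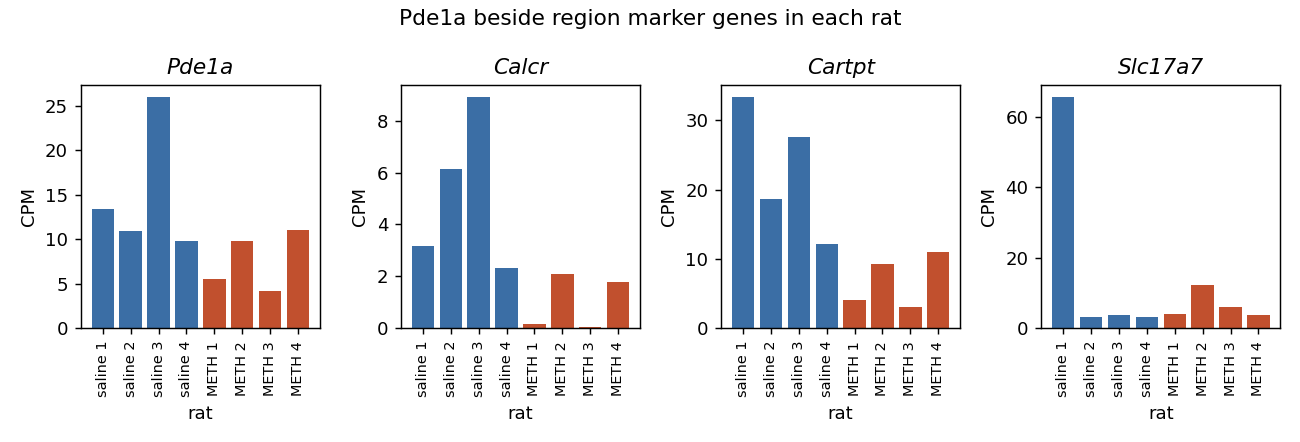
CPM of Pde1a, of the ventral striatal markers Calcr and Cartpt and of the cortical marker Slc17a7 in each saline (blue) and METH (red) rat. Nts and Drd3, of the same ventral striatal list, are not drawn. Nts was not low in the same METH rats as Pde1a, and Drd3 had too few reads to tell. Saline rat 3 is highest for Pde1a (26.1 CPM) and Calcr (8.94 CPM), while Slc17a7 is high in saline rat 1 alone (65.8 CPM).

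Of the 11 other catalytic phosphodiesterase genes, 8 were tested and 0 were called by the same test, with 1 higher and 1 lower at an unadjusted p below 0.05, and their median log2 fold change was -0.29. Pde3b, a cGMP-inhibited cAMP enzyme, was at 17.9, 21.4, 20.0 and 17.4 CPM in saline and 13.8, 16.3, 13.2 and 15.9 CPM in METH rats 1 to 4, so its groups did not overlap. The fitted log2 fold change of Pde3b, -0.37 with a standard error of 0.12, missed the threshold (edgeR, FDR = 0.268). Pde4c, the remaining PDE4 gene, was at 1.85 ± 0.33 CPM in saline and 3.18 ± 1.22 CPM in METH rats (SD, n = 4 each), which gave a log2 fold change of 0.78 with a standard error of 0.31 (edgeR, FDR = 0.392), or of 0.49 without METH rat 3. Pde3a, Pde5a, Pde8a and Pde11a had log2 fold changes from -0.68 to -0.21, and Pde7a and Pde9a had 0.05 and 0.08, signs that turned when single rats were left out. The photoreceptor genes Pde6a, Pde6b and Pde6c did not pass the filter on low counts, and Pde6a had 0 reads in every rat, which allows up to 0.142 to 0.169 CPM.

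The enzymes that make cyclic nucleotides and the proteins that read them were not called either. Of 9 adenylyl cyclases, 0 were called and 1 passed an unadjusted p below 0.05. This was Adcy4, at 5.80 ± 1.08 CPM in saline and 4.14 ± 0.58 CPM in METH rats (SD, n = 4 each), which gave a log2 fold change of -0.49 with a standard error of 0.21 (edgeR, FDR = 0.421). Of 8 guanylyl cyclases and nitric oxide synthases, 0 were called or passed the unadjusted p, 7 had a lower fitted level in METH rats, and their median log2 fold change was -0.19. Of 12 effectors (subunits and inhibitors of protein kinase A, protein kinase G and the exchange factor Epac), 0 were called and 1 passed the unadjusted p. This was Pkia, an inhibitor of protein kinase A, at 143 ± 18.5 CPM in saline and 117 ± 14.0 CPM in METH rats (SD, n = 4 each), which gave a log2 fold change of -0.29 with a standard error of 0.11 (edgeR, FDR = 0.341). Of 11 partners and anchoring proteins of phosphodiesterases, 0 were called or passed the unadjusted p, and their median log2 fold change was -0.0018.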

How the data were processed

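Striatal mRNA of 8 rats (4 METH, 4 saline) was analysed. Per the labels and methods, the authors used cutadapt 1.18 for trimming, STAR 2.7.0e for alignment to rn6 and featureCounts (Subread 1.6.4) for counting, and deposited raw counts per gene symbol. The annotation, strand setting and treatment of reads shared between genes are not given in the sources used here, so overlapping or antisense neighbours could add reads to a gene.

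From these counts, genes were filtered with filterByExpr (minimum count 10) and scaled by TMM, and the test was edgeR's quasi-likelihood F (edgeR 4.0.16, R 4.3.3). A call needed a mean log2 CPM above 1 and a Benjamini-Hochberg FDR under 0.05. Log2 CPM used a prior count of 2. DESeq2 1.42.0, limma-voom (limma 3.58.1), other scalings, no filter, other call rules, the rat number as a block and each rat left out were the alternatives. The fit was tested on simulated data. All 12 within-group pairs of rats exceeded counting noise, with chi-square values of 10.4 to 28.6 per degree of freedom, and p-values measure the spread between these rats. Total counts were 18135939 to 21211920 per rat.

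The members, lists and tests were chosen with earlier results of these data known. The text names all members and the other catalytic phosphodiesterases. Of each other pathway list it names called genes, or else up to 4 at an unadjusted p below 0.05, and it names the 3 genes nearest in pattern to the members with the lowest and highest log2 fold change. Atp2b4's values, the ratios between members, the marker genes and single libraries were picked after their values were seen. No coordinates on rn6 are given. Adcy9, Rapgef4 and Emx1 were not analysed here, and Gucy1a1, Gucy1b1 and Rack1 were followed under their older symbols.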

Additional observations from a re-analysis of the deposited data

How the results depend on the processing

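No member was called under the 17 alternatives tried, and none of the other phosphodiesterases or pathway lists gained a call. The number of all genes called, 62, was 37 with the replicate block and 186 with the DESeq2 Wald test, and 37 to 70 when each rat was left out (37 without saline rat 2). The cause was not tested. Rats of the same number are different animals, and their deviations correlated at 0.01, -0.185, -0.201 and 0.036. Whether rats of the same number shared a batch was not tested. The replicate block changed no other call. Signs that turned were those of values near 0. Pde1b had a log2 fold change of -0.0071 under upper-quartile scaling and -0.0361 under total-count scaling, and -0.0465 to 0.0351 with each rat left out. Pde8b had -0.013 under total-count scaling and -0.0507 to 0.1028 with each rat left out. Leaving out rats gave -0.0397 to 0.1262 for Pde7a and -0.0333 to 0.2039 for Pde9a. The cause was not tested. Without saline rat 3 the median of the members turned from -0.08 to 0.01, Pde4a was 0.35 and Pde8b 0.07. Of the remaining values, 16 counts moved by over 1.5 times, 6 of them the members at an unadjusted p below 0.05 given above and the rest the split of all calls by direction. For Pde1a, counting error was small beside the spread between rats.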
